A study of Mus musculus with 4 samples.

Results

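Ba/F3 is an established mouse pro-B cell line that depends on the growth factor interleukin-3 (IL-3), and the comparison described here set Ba/F3 cells that expressed BCR-ABL and grew without IL-3 against parental Ba/F3 cells that grew with it. The members are 3 of the 4 arrays in the series, chosen by their titles and descriptions: 1 array of the parental line (Baf3) and 2 arrays of the derived line (Baf3+DOX A and Baf3+DOX B, called A and B). The parental cells had IL-3 and no doxycycline. The derived line carried a BCR-ABL construct that doxycycline switches on, and its cells were kept in 500 ng/ml doxycycline without IL-3. All cultures were in RPMI with serum and were taken in logarithmic growth. The fourth array, of the derived line with doxycycline and IL-3, is quoted only beside these values. It was set against the same parental array, so any likeness between the BCR-ABL arrays includes that array's own deviation.

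BCR-ABL, the derived line, doxycycline and the absence of IL-3 all differ between the groups, so their parts cannot be told apart. The labels state neither whether the derived line is 1 clone nor whether A and B are separate cultures. A p-value below therefore rests on the spread of these samples alone, and that spread may be technical.

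IL-3 binds a receptor made of an alpha chain (Il3ra) and a shared beta chain (Csf2rb, or Csf2rb2 in the mouse) and activates the kinase JAK2. JAK2 phosphorylates the transcription factor STAT5, and the receptor also feeds the RAS-ERK and PI3K-AKT pathways. BCR-ABL, the fused kinase that causes chronic myeloid leukaemia, is always active and drives the same pathways without a cytokine, which is how it frees Ba/F3 cells from IL-3.

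Transcripts were measured on Affymetrix Gene 1.0 ST arrays. The deposited value of every probe set on the parental array is 0, so each value on A or B is a difference from that array, read as log2 (1 unit is 2-fold). Absolute levels were not analysed, and levels of different genes cannot be compared. After naming, 19935 genes were compared. The median gene lay at 0.00 on A and -0.08 on B, and the SD over genes of the difference between A and B was 0.196 (log2). So few arrays limit the precision of each value. Probe sets of near-identical genes, such as those of the Gbp, Lilr, Klk1b, Bcl2a1, C1s, Pcdhb and histone families, can respond to each other's transcripts.

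The mouse probe sets of both fusion partners were close to the parental array. Abl1 was at 0.02 on A and -0.06 on B, and Bcr at 0.17 and 0.15. The labels do not give the species or the extent of the fusion's sequence, so these values do not check the labels. Il3 itself was at -0.01 on both arrays. For the receptor, Il3ra was at -0.44 and -0.57 (adjusted p = 0.054, limma), Csf2rb at 0.04 and -0.06, and Csf2rb2 at 0.06 and -0.12, and none of them passed the test.

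Across all genes, 5552 (27.9%) lay above the parental array on both A and B and 8376 (42.0%) lay below it on both. This split depends on where an array's centre is set, since it became 7160 and 7159 genes once the arrays had been centred on their medians. By limma, at an adjusted p under 0.05, 1035 genes (5.19%) passed as higher and 572 (2.87%) as lower. Each list's count of called members below is to be read against these all-gene shares. With centred arrays 936 genes passed (4.70%), of which 637 were higher and 299 lower. The counts of called members below are followed by those after centring where a count changes by at least 1.5 times. A count after centring is to be read against 637 and 299 of 19935 genes, not against 5.19% and 2.87%. Among the called genes named below, Cdkn1b, Ddit3, Gadd45a, Gbp7, Gfi1b, Gstp1, Hdc, Hsd17b7, Igsf6, Il15ra, Itga6, Itgb3, Mmp9, Odc1, Olfm3, Pcdhb16 to Pcdhb19, Rbm17, Rgs18 and Slc7a11 lost their call in this way. A gap of at least 2-fold on both arrays was found for 180 genes (0.903%) above and 81 (0.406%) below. On B alone 296 and 133 genes passed it, and on A alone 220 and 112. Of the called genes, 37 were at least 4-fold higher and 12 at least 4-fold lower in the mean of A and B.

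**Figure D1:**
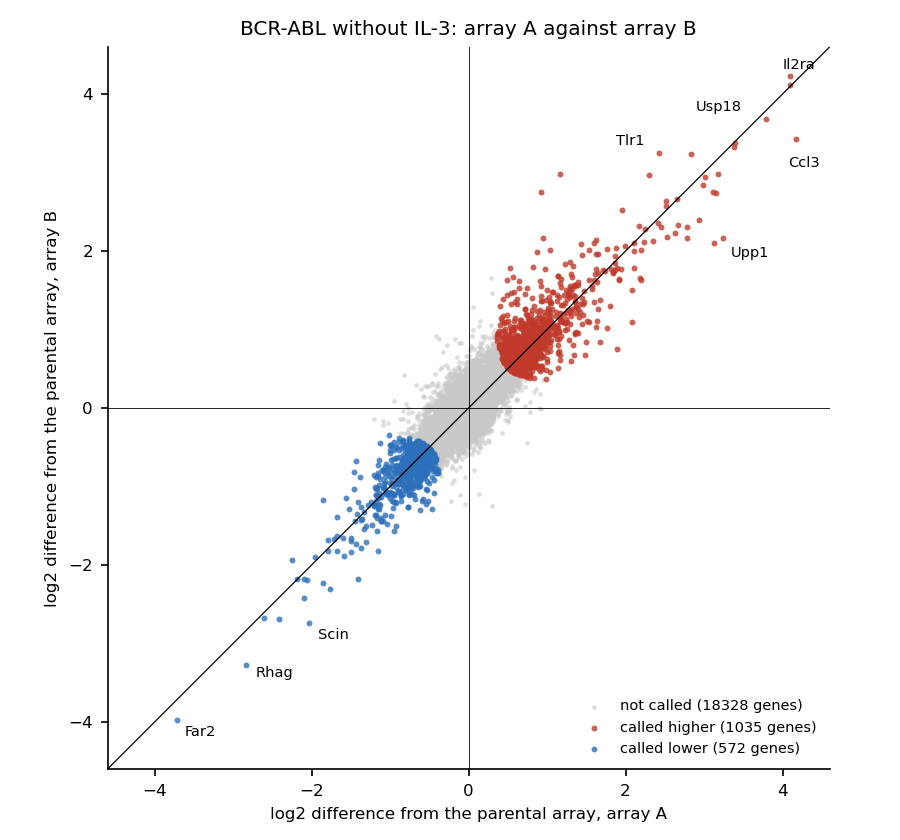
Each point is 1 of 19935 genes, with its log2 difference from the parental array on array A (horizontal) and array B (vertical). Genes called higher by limma are red and genes called lower are blue; the diagonal marks equal values. Both arrays lie on the same side for all called genes, and Upp1, Ccl3 and Tlr1 lie farther from the diagonal than Il2ra and Usp18.

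The genes farthest above the parental array on both A and B encoded a cytokine receptor chain, secreted cytokines, myeloid surface receptors and interferon-induced proteins. Il2ra, which encodes the IL-2 receptor's alpha chain, stood at 4.10 on A and 4.12 on B, a 17.2-fold increase (log2 4.11, SE 0.15). The leukocyte immunoglobulin-like receptor genes Lilr4b and Lilrb4a were also nearly equal on the arrays, at 2.65 and 2.66 for the former and 2.51 and 2.58 for the latter. Tarm1, a receptor that activates myeloid cells, was at 2.42 and 2.36. In these genes, which were chosen by their gap on both arrays, A and B differed by far less than either did from the parental array.

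Other genes of the same rank differed more between the arrays. Cd74, the invariant chain of MHC class II, was at 2.94 on A and 2.40 on B. Tlr1, a receptor for bacterial lipopeptides, was at 2.43 and 3.25, and Upp1, which splits uridine, at 3.25 and 2.17 (log2 2.71, SE 0.27). All 3 rose on both arrays, which their choice by the gap on both arrays required. Akap6, a scaffold for protein kinase A, was at 2.46 and 2.31, Ephx2, a soluble epoxide hydrolase, at 2.79 and 2.17, and Tespa1, a signalling protein of T cells, at 2.53 and 2.18. Milr1, Ifit3, Tlr1, Akap6 and Ephx2 were read from dim probe sets, those with a low stored number on some array.

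On the other side, Far2, a fatty acyl-CoA reductase, fell to -3.71 on A and -3.98 on B, a 14.4-fold decrease. On the array with IL-3 it stood at -2.83. The actin-severing protein gene Scin was at -2.04 and -2.74, Ampd3, an AMP deaminase of red cells, at -1.79 and -1.82, and the melanocortin receptor gene Mc5r at -1.77 and -2.30. Acss2, which makes acetyl-CoA from acetate, was at -1.50 and -1.83, and Irak3, an inhibitor of Toll-like receptor signalling, at -1.45 and -1.44. Both arrays lay below the parental value for each of these genes, as their choice by the gap on both arrays required. Crebrf, a regulator of the CREB3 factors, stood at -1.72 and -1.66 against -1.11 on the array with IL-3, and the MHC class Ib gene H2-T24 at -1.50 and -1.65 against -0.85.

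**Figure D2:**
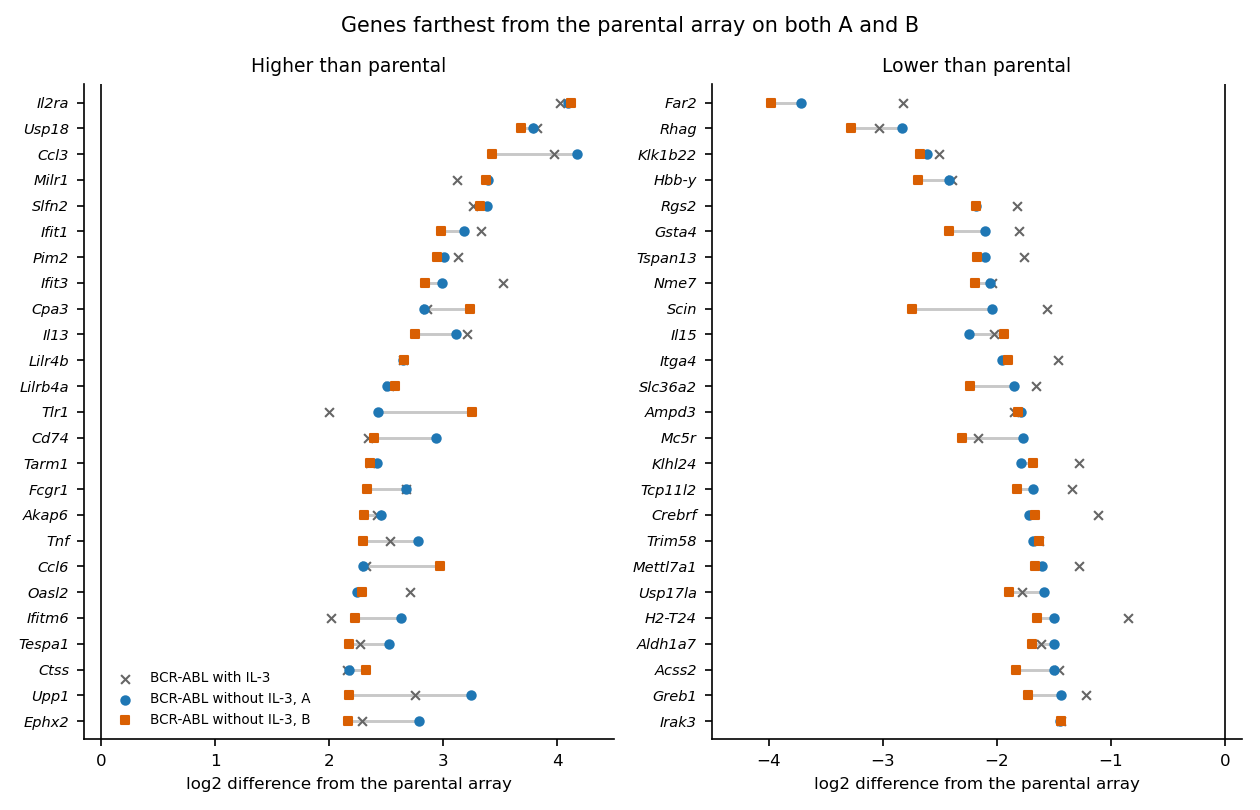
For the 25 genes farthest above (left) and below (right) the parental array on both A and B, points give the log2 difference on A (circles), B (squares) and the BCR-ABL array with IL-3 (crosses); the line at 0 is the parental array. Il2ra leads the left panel at 4.10 and 4.12, and Far2 leads the right panel at -3.71 and -3.98.

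Genes that STAT5 switches on, and that cytokine receptors use for feedback, were split between large increases and values near the parental array. Of 19 measured genes of this list, 8 (42.1%) were called higher and 0 lower. Pim2, a survival kinase, was at 3.01 on A and 2.95 on B. The feedback inhibitors Cish and Socs1 were at 2.11 and 2.001, and at 1.82 and 1.77. The related inhibitors did not pass the test, with Socs2 at 0.20 and 0.13 and Socs3 at 0.44 and 0.06. Pim1, at 0.35 and 0.37, and Pim3, at 0.13 and -0.01, also stayed short of it, so within both the PIM and the SOCS families some members were called and others were not. Whether these members differ from each other was not tested. The median over the list was 0.25, and it was 0.35 on A, 0.13 on B and 0.60 on the array with IL-3.

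STAT factors bind the gamma-activated sequence, TTCNNNGAA, and the Cish window is shown because it holds the motif in tandem. The window runs from 250 bases before to 30 bases after the RefSeq start site (GRCm38.p6, chr9:107296409-107296688, plus strand), with the matches in capitals.
Cish: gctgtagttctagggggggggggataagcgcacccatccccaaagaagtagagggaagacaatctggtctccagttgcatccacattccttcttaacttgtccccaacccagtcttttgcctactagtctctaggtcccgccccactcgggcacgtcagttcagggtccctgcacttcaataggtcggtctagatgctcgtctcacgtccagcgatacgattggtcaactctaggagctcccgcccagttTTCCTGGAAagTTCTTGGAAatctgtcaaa
The 2 matches, TTCCTGGAA and TTCTTGGAA, begin at bases 1 and 12 after the start. Both strands were searched in windows of 300 bases, from 250 before to 50 after the start, and 8.30% of 32851 such windows held the motif. Counted by gene, 8.99% of the 15612 compared genes with a window held it, and among the STAT5 list's genes it stood in 3 of 15 (Cish, Socs3 and Bcl6), and of these Cish alone was called. A match is a description of the sequence, not a binding site.

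Of 28 receptor genes for interleukins and growth factors, the IL-3 receptor chains among them, 4 (14.3%) were called higher and 1 (3.57%) lower, beside 5.19% and 2.87% of all genes, with a median of -0.09. Beside Il2ra the genes called higher were Il2rb, the signalling beta chain that IL-2 and IL-15 share, at 1.01 and 1.21, Il15ra at 0.71 and 1.26, and Il4ra, the interleukin-4 receptor chain, at 0.91 and 0.64. Epor, the erythropoietin receptor, fell to -0.58 and -0.82. Il15, the ligand of Il15ra, fell as well, to -2.25 and -1.94. For the interleukin-2 and interleukin-15 system, the receptor chains named were thus above the parental array on both A and B, and this ligand below it. These genes were picked among the called ones, and Il15ra lost its call after centring.

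ERK signalling raises a set of immediate-early and feedback genes, and 8 of 19 measured (42.1%) were called higher and 0 lower, with a median of 0.46. The phosphatases Dusp5 and Dusp6, which switch ERK off, were at 2.35 and 2.13, and at 1.30 and 1.24. The transcription factor genes Egr2, Etv5 and Fosl1 were at 2.08 and 1.51, at 1.37 and 1.29, and at 0.99 and 0.72. The Sprouty inhibitors did not pass, with Spry1 at 0.06 and -0.12 and Spry2 at 0.03 and 0.49. Spry4 lay above the parental array on both arrays, at 0.33 and 0.62 (adjusted p = 0.094, limma). Of the tyrosine phosphatases, 2 of 37 (5.41%) were called higher and 3 (8.11%) lower (1 and 2 after centring), so the share called higher was near the 5.19% of all genes. Ptpn22, which restrains lymphocyte signalling, fell to -1.14 and -1.12, Ptprj to -0.69 and -0.84, while Ptpn9 rose to 1.05 and 1.00. Ptpn1 (-0.07 and -0.11) and Ptpn11 (0.08 and 0.10), which act on cytokine and growth factor signalling, stayed near 0.

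In the PI3K pathway, 3 of 18 genes (16.7%) rose and 1 (5.56%) fell (2 and 1 after centring), beside 5.19% and 2.87% of all genes. Pik3cg and Pik3cd, the catalytic subunits typical of blood cells, were at 0.99 and 0.92, and at 0.69 and 0.51. Pik3ca and Pik3cb, the catalytic subunits found in most tissues, were at -0.32 and -0.26, and at -0.25 and -0.13, and did not pass. Pik3ip1, an inhibitor of PI3K, fell to -0.75 and -0.87. FOXO factors are kept out of the nucleus by AKT, and Pik3ip1 is also among their targets. Of 19 FOXO factors and targets, 0 were called higher and 2 (10.5%) lower (0 and 1 after centring), beside 5.19% and 2.87% of all genes. On both arrays 14 of 19 lay below the parental array, beside 42.0% of all genes, a share that depends on centring. The median of this list was -0.11 on A, -0.23 on B and 0.00 on the array with IL-3, beside -0.04 for all genes in the mean of A and B.

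Interferon-stimulated genes formed the list with the highest median in the mean of A and B. On B alone, and without dim probe sets, the serine, one-carbon and asparagine list described further on was higher, at 0.99 against 0.95 and at 0.974 against 0.941. Interferons act through cell-surface receptors, and their signal switches on antiviral genes that carry the interferon-stimulated response element. Of 36 measured genes, 25 (69.4%) were called higher and 0 lower, and the median was 1.01 (1.04 on A, 0.95 on B and 1.09 on the array with IL-3). Usp18, a protease that removes the ubiquitin-like protein ISG15 and damps interferon signalling, was at 3.79 on A and 3.68 on B. Ifit1 and Ifit3, which bind viral RNA or assist in it, were at 3.18 and 2.98, and at 2.99 and 2.84. The other large increases were those of Oasl2 (2.25 and 2.29), the nucleic acid sensor Zbp1 (2.11 and 2.10) and the transcription factor Irf7 (2.20 and 2.01). Each of the 6, named for the widest gaps in the list, had both arrays at least 4-fold above the parental array. Members that were not called included the transcription factors Irf1 (0.11 and -0.02), Irf8 (-0.05 and -0.14) and Stat2 (0.20 and -0.06).

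The ligands, receptors and sensors of the interferon system gave few calls. Of 18 genes, limma called 0 higher and 1 (5.56%) lower, beside 5.19% and 2.87% of all genes. At an unadjusted p under 0.05 by limma 2 were higher and 2 lower, and the median was 0.03. Ifngr1, the ligand-binding chain of the interferon-gamma receptor, fell to -1.18 and -1.03. Ifnb1, interferon beta, was at 0.02 and -0.07 in a dim probe set, and the type I receptor genes Ifnar1 and Ifnar2 were at 0.07 and 0.01, and at -0.04 and 0.08.

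The windows of Ifit1 (chr19:34640639-34640918) and Ifit3 (chr19:34583279-34583558), both on the plus strand of GRCm38.p6, are shown because each holds the response element, GAAA followed after any 2 bases by GAAA, in duplicate. Capitals mark the matches, which here read on the opposite strand, as TTTCACTTTC and TTTCAGTTTC in each gene.
Ifit1: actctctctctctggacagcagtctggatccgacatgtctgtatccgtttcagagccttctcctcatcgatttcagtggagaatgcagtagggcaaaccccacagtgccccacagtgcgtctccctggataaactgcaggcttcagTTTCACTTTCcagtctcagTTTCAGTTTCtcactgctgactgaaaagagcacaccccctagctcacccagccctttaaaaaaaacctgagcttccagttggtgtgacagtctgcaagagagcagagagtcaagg
Ifit3: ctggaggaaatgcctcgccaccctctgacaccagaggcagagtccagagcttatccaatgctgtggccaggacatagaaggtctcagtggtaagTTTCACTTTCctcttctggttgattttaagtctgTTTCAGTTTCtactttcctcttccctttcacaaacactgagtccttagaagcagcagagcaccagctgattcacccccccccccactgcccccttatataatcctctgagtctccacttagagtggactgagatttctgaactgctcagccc
In Ifit1 the matches begin at bases -104 and -85 and in Ifit3 at -156 and -122, counted from the start site. Of all windows, 3.44% held the motif, and of the compared genes with a window 3.89%, against 12 of 27 (44.4%) of the interferon-stimulated genes with a window. The share was 47.1% among the called genes (8 of 17) and 40% among those not called (4 of 10). Oas1a, at 0.33 and 0.49, and Stat2 held it without a call.

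The Schlafen genes and the interferon-induced GTPases (Gbp, Irgm and Iigp families) defend cells against viruses and vacuolar pathogens. Of 18 measured, 12 (66.7%) rose and 0 fell, with a median of 0.84. Slfn2, which is required for lymphocyte quiescence, was at 3.39 and 3.32, and its relative Slfn4 at 1.64 and 1.11. Slfn1 (0.48 and -0.02, dim) and Slfn8 (0.27 and 0.25) did not pass. Of the GTPases, Gbp2b was at 1.91 and 1.63, Irgm1 at 1.41 and 1.16 and Iigp1 at 1.18 and 1.55, the last in a dim probe set. MHC class I presentation, which interferons also raise, held 4 increases (25%) and 1 decrease (6.25%) among 16 genes, beside 5.19% and 2.87% of all genes. H2-Q4 was at 0.96 and 1.10, the immunoproteasome subunit Psmb10 at 0.83 and 0.87, the proteasome activator Psme2 at 0.73 and 0.68 and the class I transactivator Nlrc5 at 0.60 and 0.52. Tap2, a subunit of the peptide transporter, went the other way, to -0.74 and -0.94, and its partner Tap1 stood at -0.35 and -0.41 without a call.

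Among 34 chemokines, 5 (14.7%) were called higher and 0 lower, and the median was 0.00. Ccl3, which attracts monocytes and restrains haematopoietic stem cells, was at 4.17 on A and 3.43 on B, and Ccl6 at 2.30 and 2.97. Cxcl10 (1.73 and 1.75), Ccl5 (1.54 and 1.63) and Ccl9 (0.88 and 1.01) completed the group. For chemokine receptors, 2 of 22 rose and 2 fell (9.09% each, 1 and 2 after centring), beside 5.19% and 2.87% of all genes. Cxcr2, a neutrophil receptor, was at 1.41 and 1.32, while Cxcr4, which holds progenitors in the bone marrow, was at -1.11 and -1.13, and Ccr2 at -0.86 and -1.19.

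Of 39 interleukins and related factors, 7 (17.9%) rose and 1, Il15, fell. Il13 and Il4, the cytokines of type 2 immunity, were at 3.11 and 2.76, and at 2.20 and 1.63. Osm and Lif, members of the IL-6 family, were at 1.84 and 1.72, and at 1.31 and 1.17, and Il6 at 0.73 and 0.90. The growth factor genes Csf2 (0.02 and -0.07) and Csf3 (0.04 and 0.02, dim), whose products support myeloid cells, stayed at the parental value. The TNF superfamily held 7 increases (17.9%) and 1 decrease (2.56%) among 39 genes, beside 5.19% and 2.87% of all genes. Tnf was at 2.78 and 2.30, the death ligand gene Tnfsf10 at 1.44 and 1.08 (dim), and Tnfsf14 at a mean of 1.37. The receptor gene Tnfrsf14 fell to -1.06 and -1.09. Tnfsf14 encodes a ligand of the Tnfrsf14 product, so this ligand and this receptor lay on opposite sides of the parental array.

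NF-kB drives many of these cytokine genes, and its own targets include its inhibitors. Of 20 genes of the pathway, 5 (25%) rose and 0 fell, with a median of 0.15. The inhibitors Nfkbib (0.90 and 0.80), Nfkbie (0.77 and 0.75) and Nfkbia (0.87 and 0.65) rose with the precursor subunit Nfkb2 (0.84 and 0.66). Rela, the main activating subunit, was at 0.15 and -0.20 and Rel at 0.35 and 0.33, and neither passed.

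At the cell surface, Fc receptors and inhibitory receptors held 8 increases (28.6%) and 2 decreases among 28 genes (6 and 1 after centring), although their median was -0.01. Milr1, an inhibitory receptor of mast cells, was at 3.39 and 3.37, and the antibody receptors Fcgr1 and Fcgr4 were at 2.67 and 2.33, and at 1.84 and 1.73. Cd33, a marker of myeloid cells, was at 1.88 and 2.04, and Cd274, the ligand PD-L1, at 1.39 and 1.56. Cd72, an inhibitory receptor of B cells, fell to -0.76 and -0.71. The increases were thus large in a few genes while most of the list stayed near 0.

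Of 25 integrin subunits, 0 were called higher and 4 (16%) lower (0 and 2 after centring), with none higher at an unadjusted p under 0.05 by limma. Itga4 and Itgb7, whose products pair as the gut-homing integrin, were at -1.95 and -1.90, and at -1.23 and -1.50. Itga6 (-0.99 and -0.47) and Itgb3 (-0.41 and -0.78) lost their calls after centring. Of 20 RGS genes, which shorten G protein signals, 0 rose and 3 (15%) fell (0 and 2 after centring). Rgs2 was at -2.18 on both arrays against -1.83 with IL-3, Rgs11 at -1.16 and -1.15 against -0.66, and Rgs18 at -0.46 and -0.59 against -0.73. The 26 tetraspanins, membrane organisers, gave 1 call each way (3.85%), beside 5.19% higher and 2.87% lower of all genes. These were Tspan13 at -2.10 and -2.17 and Tspan4 at 1.05 and 1.10.

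In the BCL2 family, which sets the threshold for apoptosis, 3 of 16 genes (18.8%) rose and 1 (6.25%) fell, beside 5.19% and 2.87% of all genes. The antiapoptotic genes Bcl2l1, which encodes BCL-XL and is a STAT5 target, and Bcl2 were at 1.00 and 0.97, and at 0.87 and 1.11. Bcl2a1c, of the antiapoptotic A1 group, was at 1.76 and 2.02 in a dim probe set. Bcl2l11, which encodes the proapoptotic protein BIM, fell to -1.33 and -1.54. Mcl1, also antiapoptotic, was at -0.34 and -0.09 and did not pass. Bcl2l1 and Bcl2, both antiapoptotic, were thus called higher, and the proapoptotic Bcl2l11 was called lower. The Bcl2a1c probe set can respond to transcripts of other Bcl2a1 genes.

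Of 24 cyclins, cyclin-dependent kinases and their inhibitors, 3 (12.5%) rose and 2 (8.33%) fell (3 and 1 after centring). The shares of all genes were 5.19% and 2.87%. Ccne1 and Ccne2, the cyclins of entry into S phase, were at 1.17 and 1.11, and at 0.67 and 0.87, and the G1 cyclin Ccnd2 at 0.78 and 0.65. Ccnd1 (0.06 and 0.01), Ccna2 (-0.12 and 0.01) and Ccnb2 (-0.33 and -0.28) did not pass. The retinoblastoma relative Rbl2 fell to -0.70 and -0.66, and the inhibitor Cdkn1b to -1.13 and -0.45, a call that centring removed.

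The DNA replication genes held 13 increases (38.2%) and 0 decreases among 34 (6 and 0 after centring). The origin recognition genes Orc2 and Orc1 were at 1.47 and 1.49, and at 1.05 and 1.34. Rrm2, the regulated subunit of ribonucleotide reductase, was at 1.36 and 1.55, the licensing factor Cdc6 at 0.71 and 0.66 and the flap endonuclease Fen1 at 0.62 and 0.63. The helicase genes Mcm2 to Mcm5 lay nearer the parental array and did not pass, between 0.24 and 0.43 on both arrays. Here the array with IL-3 gave other values: the list's median was 0.38 on A and 0.42 on B but 0.01 on that array, where Mcm2 stood at -0.04 and Fen1 at 0.09. Histone and mitosis genes gave no called increases, nor any at an unadjusted p under 0.05 by limma. Of 27 replication-dependent histone genes, 0 were called higher and 2 (7.41%) lower, beside 5.19% and 2.87% of all genes. These were H1f3 (-0.77 and -0.96) and H1f2 (-0.77 and -1.26). On both arrays 0 histone genes lay above the parental array and 18 below it, beside 27.9% and 42.0% of all genes. Of 23 mitosis genes, 0 rose and 1 (4.35%) fell, beside 5.19% and 2.87% of all genes. The gene that fell was Cenpf at -0.74 and -0.67, while Plk1 was at 0.04 on both arrays. The mitosis median was -0.13 on A and 0.04 on B, so its side depends on the array.

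Among the 34 genes for ribosome biogenesis, 24 (70.6%) rose and 0 fell. On both A and B 31 of 34 lay above the parental array, beside 27.9% of all genes. Their median was 0.73, with 0.72 on each of A and B and 0.47 on the array with IL-3. Rrp9, which binds the U3 snoRNA, was at 1.35 on both arrays, Bop1, needed for the large subunit, at 1.18 and 1.12, Nolc1 at 1.13 and 1.03 and the RNA polymerase I subunit Polr1e at 1.00 and 0.84. Pes1, the partner of Bop1, was at 0.24 and 0.30, and the nucleolar genes Fbl (0.35 and 0.52) and Ncl (0.32 and 0.62) did not pass. Among 59 cytosolic ribosomal proteins, 1 (1.69%) was called higher and 0 lower, and the median was -0.05, next to the -0.04 of all genes. The gene called was Rpl12, at 0.65 on both arrays. Mitochondrial ribosomal proteins lay between, with 14 of 77 (18.2%) called higher and 0 lower (6 and 0 after centring). On both arrays 66 of 77 lay above the parental array, beside 27.9% of all genes.

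MYC binds the E-box CACGTG, and many ribosome biogenesis genes are known MYC targets. The window of Nop2, an rRNA methyltransferase at 1.04 on A and 0.79 on B, is shown because its gene holds the E-box close to the start (chr6:125131633-125131912, plus strand, GRCm38.p6). The match, in capitals, begins at base -60, and Nop2 was picked for it after its values were seen.
Nop2: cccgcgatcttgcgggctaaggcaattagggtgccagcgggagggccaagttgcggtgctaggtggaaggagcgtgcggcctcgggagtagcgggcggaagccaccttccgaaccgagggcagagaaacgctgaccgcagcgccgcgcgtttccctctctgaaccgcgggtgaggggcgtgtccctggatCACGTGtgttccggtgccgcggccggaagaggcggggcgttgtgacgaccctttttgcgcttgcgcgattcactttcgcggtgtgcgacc
Of all windows 7.15% held this E-box. Counted by gene, 9.50% of all compared genes with a window held it, as did 14.1% of those called higher, 9.17% of those called lower and 8 of 28 (28.6%) of the ribosome biogenesis genes. Under the 2-fold rule on both arrays, the shares were 11.5% of the genes above and 11.7% of those below. Within the list it stood in 6 of 20 called genes and 2 of 8 that were not called. The MYC genes did not pass, with Myc at 0.24 and 0.13 and Mycn at 0.28 and 0.41. Of 21 genes of the network and polyamine synthesis 5 (23.8%) rose and 1 (4.76%) fell, beside 5.19% and 2.87% of all genes. Srm, spermidine synthase, was at 1.32 and 1.26, and Odc1, the rate-limiting enzyme of polyamine synthesis, at 0.74 and 1.53. Mxd4, an antagonist of MYC, fell to -0.69 and -1.10.

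Translation factors gave 10 increases (16.4%) and 1 decrease (1.64%) among 61 genes (6 and 1 after centring), beside 5.19% and 2.87% of all genes. Eif1ad was at 1.05 and 1.04, Eef1e1, part of the synthetase complex, at 1.02 and 1.28, and Eif2b3, a subunit of the exchange factor for eIF2, at 0.99 and 1.13. Eef2k, the kinase that inhibits elongation, fell to -1.04 and -1.48. Eef1a1, among the most abundant transcripts of most cells, was at 0.01 and 0.00.

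**Figure D3:**
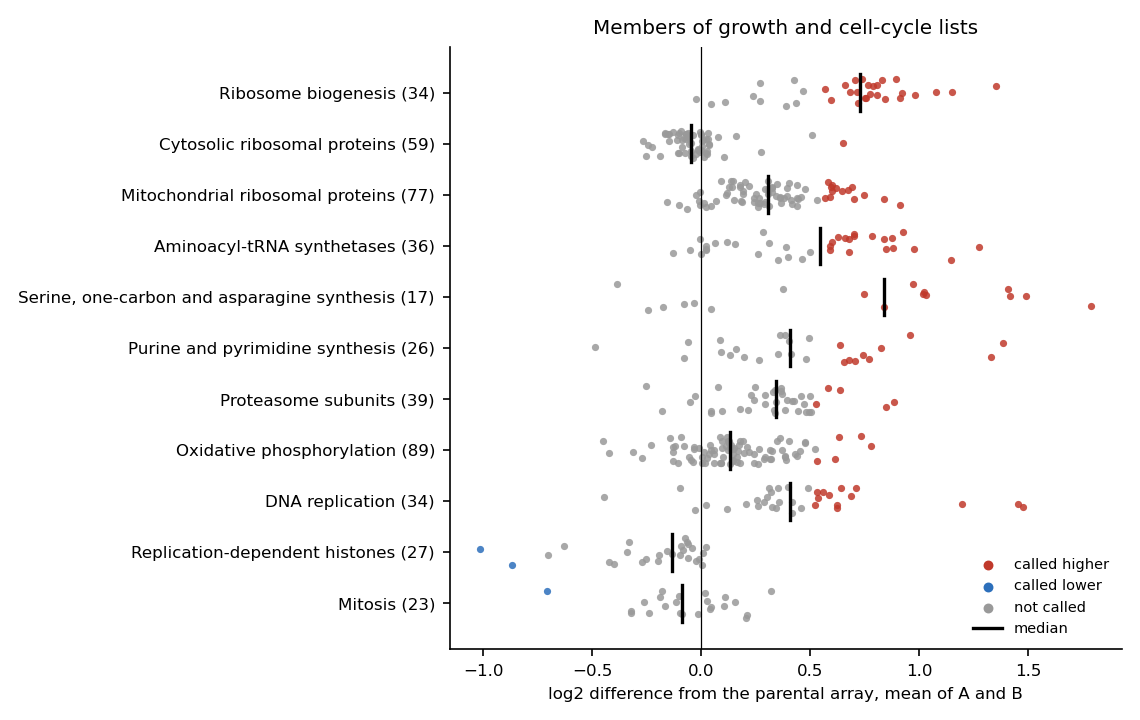
Each point is 1 gene's log2 difference from the parental array, the mean of A and B, grouped by list with the number of measured members in brackets; red marks increases and blue decreases called by limma, and bars mark list medians. Ribosome biogenesis has a median of 0.73 and cytosolic ribosomal proteins one of -0.05, with 24 of 34 and 1 of 59 genes called higher.

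Of 17 genes for serine, one-carbon and asparagine synthesis, 10 (58.8%) were called higher and 0 lower, with medians of 0.70 on A and 0.99 on B. Mthfd2, the mitochondrial folate enzyme, was at 1.62 and 1.96, the transaminases Got1 and Gpt2 at 1.32 and 1.51, and at 1.32 and 1.67, and asparagine synthetase, Asns, at 1.29 and 1.53. Psph (-0.20 and -0.15) and Mthfd1l (-0.27 and -0.22), among the 4 members below the parental array on both arrays, did not pass. Of 26 purine and pyrimidine synthesis genes, 10 (38.5%) rose and 0 fell. Gart, which carries several steps of purine synthesis, was at 1.33 and 1.44, CTP synthetase, Ctps, at 1.22 and 1.44, and Cad, which starts pyrimidine synthesis, at 0.67 and 0.74. On the array with IL-3 the purine and pyrimidine median was 0.14, against 0.42 on A and 0.43 on B.

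The aminoacyl-tRNA synthetases, which charge tRNAs, held 18 increases (50%) and 0 decreases among 36 genes (12 and 0 after centring). Tars was at 1.07 and 1.48, Cars at 0.92 and 1.03, Hars at 0.87 and 0.89 and Lars at 0.78 and 1.07. The mitochondrial enzymes Aars2 (-0.09 and 0.08) and Cars2 (-0.01 and 0.05) were at the parental value. Of 18 amino acid transporters, 6 (33.3%) rose and 2 (11.1%) fell (4 and 1 after centring), beside 5.19% and 2.87% of all genes. The glutamine carrier Slc1a5 was at 0.77 and 0.68, the cystine carrier Slc7a11 at 0.59 and 1.35 and the lysosomal carrier Slc36a1 at -0.76 and -0.86.

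ATF4, the transcription factor of the integrated stress response, raises many of these genes, and 10 of 22 genes of its list and of CHOP's (45.5%) rose and 0 fell (6 and 0 after centring). Atf4 was at 0.91 and 0.93, the stress gene Nupr1 at 1.54 and 2.01, and the mTORC1 inhibitor Sesn2 at 0.98 and 1.08. Other known targets did not pass, with Atf3 at 0.10 and -0.13, Chac1 at -0.21 and -0.39, and Ddit4 at -1.03 and -0.19. The gene for CHOP itself, Ddit3, chosen after its values were seen, was at 0.49 on A and 1.63 on B against 2.001 with IL-3, and lost its call after centring. The list's median was 0.26 on A, 0.52 on B and 0.64 with IL-3. The Asns window (chr6:7693180-7693459, minus strand, GRCm38.p6) is shown for its match to TGATGNAA, the response element that ATF4 and C/EBP factors bind, in capitals from base -23.
Asns: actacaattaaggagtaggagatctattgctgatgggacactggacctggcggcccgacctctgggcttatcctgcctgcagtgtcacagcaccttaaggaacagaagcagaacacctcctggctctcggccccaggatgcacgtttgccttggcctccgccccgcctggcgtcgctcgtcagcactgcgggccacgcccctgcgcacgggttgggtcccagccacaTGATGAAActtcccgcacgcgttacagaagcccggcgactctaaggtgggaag
Of all windows 3.97% held this motif, and counted by gene 3.62% of all compared genes with a window and 3.93% of those called higher. Asns belongs to the serine, one-carbon and asparagine list, where 2 of 15 genes with a window (13.3%) held it, Asns and Got1, both called. In the ATF4 and CHOP list it stood in 6 of 21 (28.6%), which were 2 of 10 called genes and 4 of 11 not called.

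Among 21 chaperones, 7 (33.3%) rose and 0 fell (3 and 0 after centring). The mitochondrial chaperonin pair Hspd1 and Hspe1 was at 0.91 and 1.25, and at 0.68 and 0.84. The heat-shock genes Hspa1a (0.11 and -0.16) and Hsp90aa1 (0.24 and 0.41) did not pass. Of 39 proteasome subunits, 5 (12.8%) rose and 0 fell, with a median of 0.34. On both arrays 33 of 39 lay above the parental array, beside 27.9% of all genes. Oxidative phosphorylation, with 5 of 89 genes (5.62%) called higher and 0 lower, had a share close to the 5.19% of all genes. Of 22 autophagy genes, 0 rose and 3 (13.6%) fell (0 and 1 after centring), beside 5.19% and 2.87% of all genes. Among those that fell was the initiating kinase gene Ulk1 at -0.70 and -0.97. On both arrays 15 of 22 lay below the parental array, beside 42.0% of all genes.

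Of 25 genes of glycolysis and the hypoxia response, 2 (8%) rose and 1 (4%) fell (1 and 1 after centring), and of 26 genes of the TCA cycle and pyruvate use, 2 and 2 (7.69% each; 1 and 1 after centring), beside 5.19% and 2.87% of all genes. Hk3, a hexokinase of myeloid cells, was at 1.68 and 1.37, and Idh3a, of the TCA cycle, at 0.84 and 1.10. Pdk1, which shuts pyruvate out of the TCA cycle and is a hypoxia target, fell to -1.04 and -0.83, and the hypoxia marker Ankrd37 to -1.46 and -1.03. The glucose carriers Slc2a1 (0.32 and 0.48) and Slc2a3 (0.21 and 0.20) did not pass.

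Genes of detoxification were called in both directions. Of 22 glutathione S-transferases, 1 (4.55%) rose and 2 (9.09%) fell (0 and 2 after centring): Gsta4, which clears lipid aldehydes, was at -2.10 and -2.42, Mgst3 at -1.30 and -1.50, and Gstp1 at 0.90 and 0.49. Of 23 NRF2 targets and antioxidant genes, 3 (13.04%) rose and 4 (17.39%) fell (2 and 2 after centring), beside 5.19% and 2.87% of all genes. Nqo1, a defining NRF2 target, was at -1.18 and -1.10 in a dim probe set and Taldo1 at -0.84 and -0.73, while Hmox1, which breaks down haem, was at 0.67 and 0.84 against 1.59 with IL-3. Gclc (0.06 and 0.13), another classical target, did not pass, so this list had no common direction. The ABC transporters, with 4 of 48 (8.33%) called each way, included Abcb1b, a mouse gene for the drug pump P-glycoprotein, at 1.59 and 2.11. Abcb10, a mitochondrial transporter linked to haem synthesis, fell to -1.14 and -1.29, and Abca1, the cholesterol exporter, to -0.95 and -1.57. Of the lysosomal genes, 4 of 27 (14.8%) rose and 0 fell, beside 5.19% and 2.87% of all genes. The risers were led by cathepsin S, Ctss, at 2.17 and 2.32, and cathepsin C, Ctsc, at 1.23 and 1.33.

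Lineage genes were checked against the line's pro-B label and against the other blood lineages. Since the values are differences, presence or absence of a marker could not be read. Of 11 pro-B markers, 0 were called either way by limma, with 0 higher and 2 lower at an unadjusted p under 0.05; Cd79b was at -0.45 and -0.35, and Vpreb1 at -0.17 and -0.28. Of 6 erythroid markers, 0 rose and 4 fell: Rhag, of the red-cell membrane, to -2.83 and -3.28, the embryonic globin gene Hbb-y to -2.41 and -2.69 in a dim probe set, the transcription factor Klf1 to -0.88 and -0.96, and Epor. Gata1 (-0.34 and -0.57) and Alas2 (0.21 and -0.05, dim) did not pass. Fewer cells of a type and less RNA per cell cannot be told apart in such cultures. Nfe2 (-1.06 and -1.36) and Gfi1b (-0.62 and -1.29), transcription factors of red cells and platelets, also fell, the latter only without centring.

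Of 9 mast cell and basophil markers, 2 (22.2%) were called higher and 1 (11.1%) lower (1 and 1 after centring). Their median was -0.20, and 0.74 without dim probe sets, which leaves 3 of the 9. Cpa3, the mast cell carboxypeptidase, was at 2.84 and 3.24, and Hdc, which makes histamine, at 0.93 and 0.54. Cma1, mast cell chymase, fell to -0.74 and -1.06 in a dim probe set, and the receptor genes Fcer1a (0.04 and -0.04) and Ms4a2 (-0.82 and 0.42), also dim, were not called, the latter on opposite sides on A and B. The neutrophil and monocyte markers (8) and the T and NK markers (6) had 0 calls by limma, with 0 higher and 1 lower in each at an unadjusted p under 0.05. Among 36 blood-cell transcription factors, 2 (5.56%) rose and 5 (13.9%) fell (2 and 3 after centring), beside 5.19% and 2.87% of all genes. The risers were Nfil3, a repressor named for its regulation by IL-3, at 1.36 and 1.42, and Bhlhe40 at 0.82 and 0.94, both also part of the circadian clock, along with Per2 at 0.73 and 0.81. Id2, a partner-blocking factor, was at 0.85 and 1.01, while its relatives Id1 (-0.13 and 0.13) and Id3 (-0.06 and -0.12) did not pass.

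**Figure D4:**
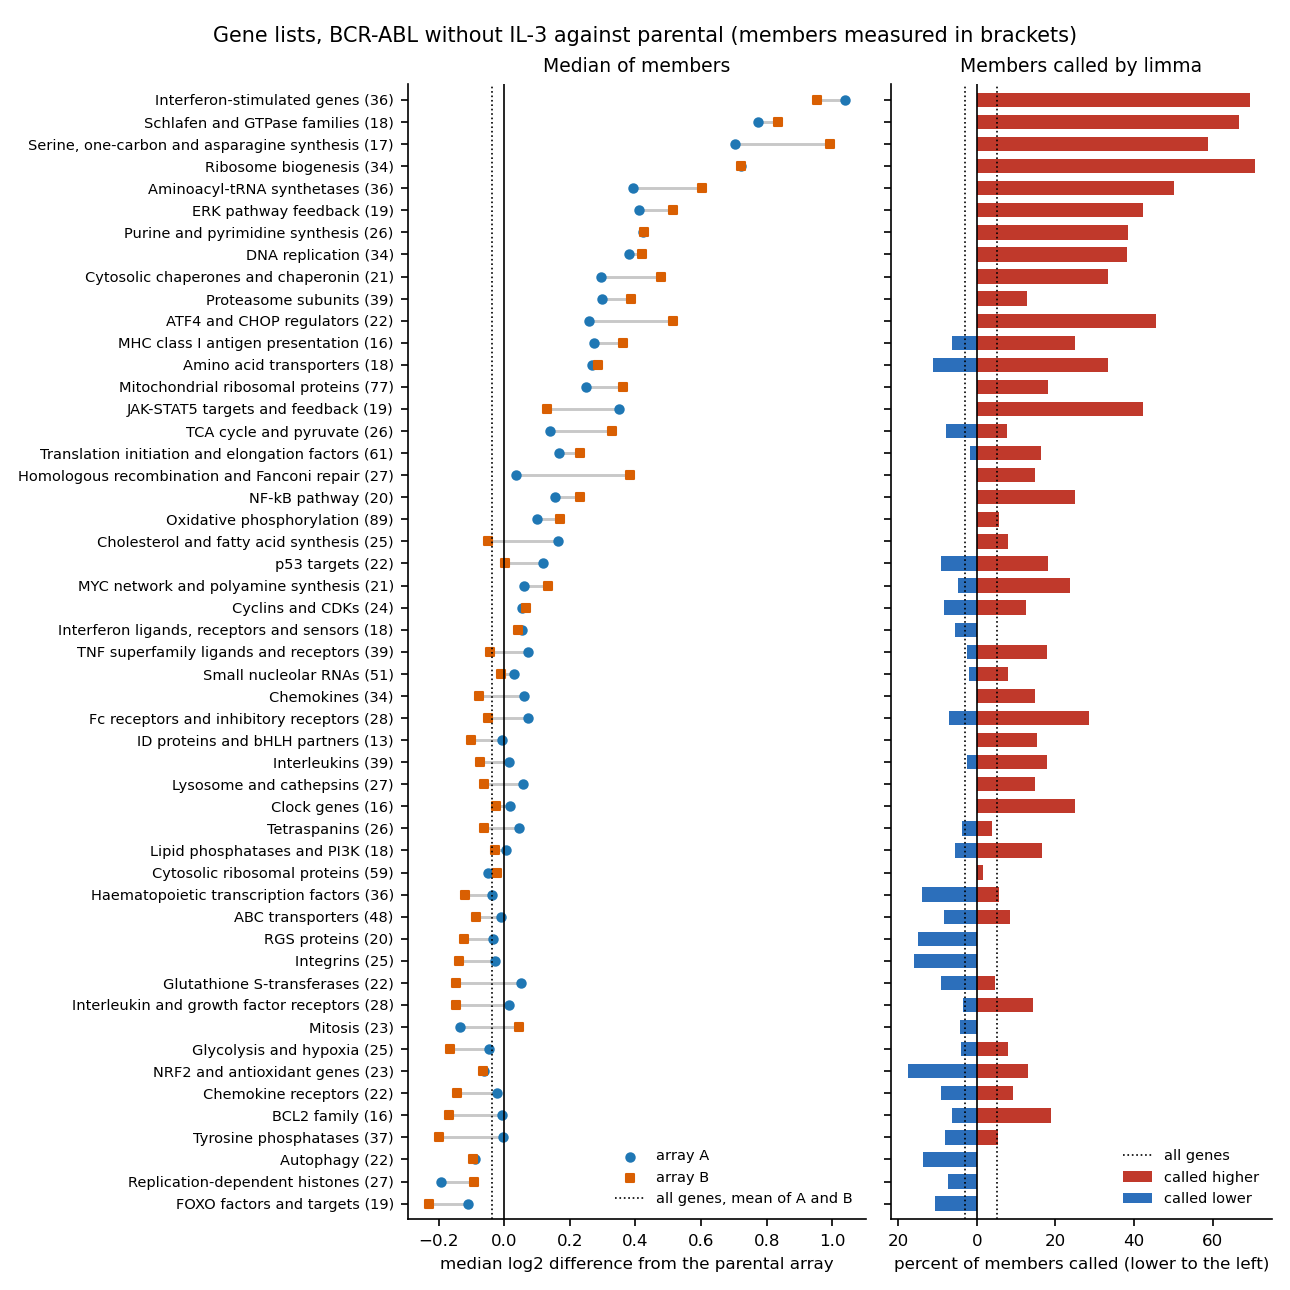
The left panel gives each list's median log2 difference from the parental array on A (circles) and B (squares), with a dotted line at the median of all genes; the right panel gives the percent of members called higher (red) and lower (blue) by limma, with dotted lines at 5.19% and 2.87%. Interferon-stimulated genes have the highest median of the lists shown on A (1.04), and serine, one-carbon and asparagine synthesis the highest on B (0.99 against 0.95), and FOXO factors and targets the lowest in the mean of both arrays (-0.11 and -0.23).

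Across the lists with 0 members called lower, at most 2 members of a list were lower at an unadjusted p under 0.05 by limma, and across those with 0 called higher at most 2 were higher. The reference genes Actb (0.16 and 0.15), Tbp (0.10 and 0.12) and Hprt (0.33 and 0.44) did not pass, and Gusb did, at 0.62 and 0.54.

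Some called genes stood next to each other on the chromosome. When the 19916 genes with a place in the RefSeq table were put in chromosomal order, 11 runs of at least 3 neighbours called in 1 direction were found, 9 higher and 2 lower, holding 36 genes. The run at Cish held Hemk1, a methyltransferase for translation release factors, at 2.23 and 2.12, and the uncharacterised gene 6430571L13Rik at 2.52 and 2.64, so the neighbours lay as far from the parental array as Cish itself. At Il2ra the neighbours were called at smaller values, with the splicing factor gene Rbm17 at 0.54 and 1.32 and Il15ra as given above. Osm and Lif formed a run with the arginine sensor gene Castor1, at 0.68 and 0.73. Further runs joined members of 1 family: Gbp5, Gbp7, Gbp3 and Gbp2b, followed by the unrelated Kyat3 (0.70 and 0.63, against 0.00 with IL-3), the complement genes C1ra (0.92 and 1.36), C1s1 (0.76 and 1.01) and C1s2 (0.81 and 1.14), and, among the runs below, the protocadherins Pcdhb16 to Pcdhb19 between -0.50 and -0.80 on both arrays. Neighbours of 1 family can share probes, and no test of clustering was made.

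**Figure D5:**
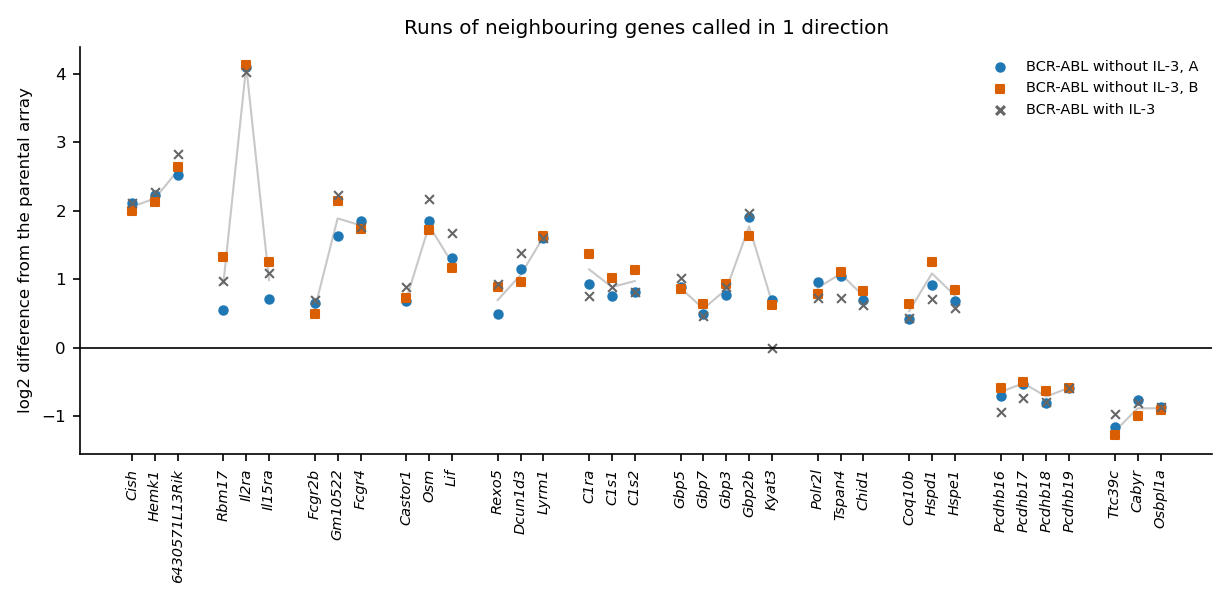
Each group of joined positions is a run of neighbouring genes in chromosomal order, all called in 1 direction; points give the log2 difference from the parental array on A (circles), B (squares) and the BCR-ABL array with IL-3 (crosses), and grey lines join the means of A and B. Hemk1 and 6430571L13Rik lie at or above Cish, while the neighbours of Il2ra lie far below it.

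The arrays A and B were not alike for every gene. At least 2-fold between them were 25 genes, 18 higher on B and 7 higher on A, of which 10 were called. These genes were chosen by that difference, which is given as a description. Olfm3, which encodes a secreted olfactomedin protein, was at 0.92 on A and 2.76 on B, and the collagenase gene Mmp8, stored in neutrophil granules, at 0.29 and 1.65. The myeloid surface genes Igsf6 (0.87 and 1.98), Ms4a6c (0.30 and 1.46) and Clec4b2 (0.05 and 1.28) were higher on B as well. Olfm3, Mmp8 and Clec4b2 were read from dim probe sets. In the other direction, the gelatinase gene Mmp9 was at 1.90 and 0.76, the complement regulator Cfp at 3.13 and 2.11, and Padi2, which converts arginine to citrulline, at 0.30 and -1.24. On the array with IL-3, Olfm3 was at 0.61, Mmp8 at 0.53, Mmp9 at 0.79 and Padi2 at 0.08. Homologous recombination and Fanconi repair genes had medians of 0.03 on A and 0.38 on B, and Brca2 (-0.02 and 0.28) and Palb2 (-0.03 and 0.44) did not pass. What set A and B apart was not tested.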

How the data were processed

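The deposited table gives values, taken here as log2, for 28815 probe sets, as differences from the parental array, whose own column is 0 throughout. The deposited parental column and the values themselves are the source of this reading. Background correction, normalization, probe summary and the base of the logarithm are not given in the sources used here. Base 2 was assumed, and every fold value rests on it. Of the 86431 nonzero values, 99.6% are integer multiples of 1 step, 2 to the power minus 21, to within their printed digits. Single-precision numbers between 4 and 8 have this spacing whatever the base of the logarithm, so the spacing does not show the base. An odd number of steps means that at least 1 array held a number under 8, as for 11130 probe sets, called dim here. An even number does not show the reverse, so probe sets not called dim can also hold low numbers. Signal over background was not analysed.

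The platform annotation gave 1 symbol to 21780 probe sets, several to 1605 and none to 5430, and 21689 of the first matched the RefSeq gene table (GRCm38.p6). Probe sets of a gene were averaged (998 genes had several), which left 19935 genes. For the 89 called genes with several probe sets, 0 had probe sets on both sides of the parental array.

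All 4 arrays were fitted with limma 3.58.1 (R 4.3.3) as 3 group means. A and B supply the single residual degree of freedom, so the lone parental array is assumed to vary like that pair. The empirical Bayes prior had 16.38 degrees of freedom and an SD of 0.128. The two-sided p-values were adjusted by Benjamini and Hochberg's method over 19935 genes, with calls at an adjusted p under 0.05. The procedure was tested on simulated data in which the parental array varied like A and B, so that test could not check this assumption.

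Lists (58) are described by counts of called members and by medians, with no set test. Genes named are the 25 called genes per direction with the widest gap on both arrays (predicted genes, olfactory receptors and small RNAs left out), up to 6 called and 4 uncalled members per list, and the fusion, IL-3 and IL-3 receptor genes. Neighbours of named genes, genes that differ between A and B, Nop2, Bcl6 and Ddit3 were chosen after their values were seen. The comparison, the members and the lists were chosen with earlier results of these data known. Promoter windows and their sequences are from RefSeq (GRCm38.p6), and 15612 of the genes compared had a window. The array files name no genome build, so no probe coordinates are given.

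The alternatives tried were median-centred arrays, a robust prior, a threshold of 0.1, a fit of the 3 arrays alone, single probe sets, dim probe sets left out, a 1.5-fold rule, and leaving out A or B.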

Additional observations from a re-analysis of the deposited data

How the results depend on the processing

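With 1 parental array and a spread that rests on the pair A and B, the calls hold only if the parental array varies like that pair. Centring each array on its median cut the calls to 637 higher and 299 lower and lowered the prior from 16.38 to 5.02 degrees of freedom. The robust prior gave 980 and 557 calls, the fit without the IL-3 array 1035 and 572, and a threshold of 0.1 gave 1297 and 761. Without dim probe sets, which tests fewer genes, the calls were 983 and 524, and 5295 genes lay below the parental array on both arrays. A 1.5-fold rule passed 634 genes above and 344 below. With A or B left out, the 2-fold rule passed 220 to 296 genes above and 112 to 133 below, and limma could not be fitted, since no residual freedom is left.

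Not counting Spry4, 270 genes were named, and 196 of them were called. Under centring 174 of these were called again and the other 22, listed with the overall counts, were not. At a threshold of 0.1, Il3ra, Mmp8 and Ms4a6c were called as well, and Ms4a6c also without dim probe sets. Spry4, which is not counted among the 270, was called at 0.1 too. None of the 270 turned its direction while called under centring or the removal of dim probe sets, which is no sign of robustness. Centring shifted array medians of 0.00 on A and -0.08 on B, and the smallest called difference was 0.51. Called genes with several probe sets had them all on the same side. A threshold cannot turn a direction. Nor could leaving out A or B, since both arrays lay on the same side for all called genes.

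Of the 58 list medians, 13 moved by more than the spread of A and B after centring, 13 without dim probe sets, 15 with A left out and 12 with B left out. Those whose medians are printed in the text follow. After centring the median was 0.069 for interferon ligands, receptors and sensors, 0.44 for DNA replication, 0.77 for ribosome biogenesis, -0.011 for cytosolic ribosomal proteins and 0.45 for purine and pyrimidine synthesis. Without dim probe sets it was 0.41 for STAT5 targets, 0.94 for interferon-stimulated genes, 0.24 for chemokines, 0.74 for ribosome biogenesis, 0.22 for Fc and inhibitory receptors and 0.74 for mast cell and basophil markers. With A or B left out it ran from 0.043 to 0.055 for interferon ligands, receptors and sensors, from 0.77 to 0.83 for the Schlafen and GTPase families and from 0.15 to 0.23 for the NF-kB pathway. It ran from 0.38 to 0.42 for DNA replication, from -0.13 to 0.043 for mitosis and from 0.722 to 0.723 for ribosome biogenesis. It ran from -0.051 to -0.023 for cytosolic ribosomal proteins, from 0.42 to 0.43 for purine and pyrimidine synthesis, from -0.23 to -0.11 for FOXO factors and targets and from -0.14 to -0.043 for mast cell and basophil markers.

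No paired analysis was possible because the labels give the groups no shared replicate numbers.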

Other observations

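Some gene groups outside the comparisons above gave calls in both directions. Of 22 p53 targets, 4 (18.2%) rose and 2 (9.09%) fell by limma (3 and 1 after centring), beside 5.19% and 2.87% of all genes. Mdm2, the ligase that degrades p53, was at 0.62 on A and 0.52 on B, and Gadd45b, a stress gene, at 0.67 and 0.49. Trp53inp1, which promotes cell death and autophagy, fell to -0.77 and -1.26, and Gadd45a to -0.998 and -0.47, against 0.00 on the array with IL-3. Related genes of this list thus lay on both sides of the parental array.

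DNA repair genes of the recombination and Fanconi pathways held 4 increases (14.8%) and 0 decreases among 27 genes (2 and 0 after centring). Fancb, part of the core complex that ubiquitinates FANCD2, was at 0.81 and 1.05 and the checkpoint kinase gene Chek1 at 0.60 and 0.74. On the array with IL-3 they stood at 0.23 and 0.20. In cholesterol and fatty acid synthesis 2 of 25 genes (8%) rose and 0 fell (1 and 0 after centring). Across all genes 5.19% rose and 2.87% fell. The risers were Idi1 at 0.62 and 0.55 and Hsd17b7 at 0.71 and 0.46, while Hmgcs1 was at -0.06 and -0.37. The small nucleolar RNAs, guides of rRNA modification, had 4 calls above (7.84%) and 1 below (1.96%) among 51 genes (2 and 0 after centring). These shares were near the 5.19% and 2.87% of all genes.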
